A study of Mus musculus with 8 samples.

Results

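The glucose transporter gene Slc2a1 and 9 genes of the enzymes that take glucose to lactate (Hk1, Hk2, Gpi, Pfkl, Aldoa, Pgk1, Eno1, Pkm and Ldha) were followed across 8 mRNA libraries made from bone marrow mesenchymal stem cells (BMSCs) undergoing osteogenic differentiation. The 10 genes were found by exact gene name among 26873 features. No member name occurred more than once, and all 10 passed the filter on low counts that 15942 features passed. The cells are labelled a wild-type Mus musculus line. They were kept in medium conditioned by polycaprolactone (PCL) scaffolds, in the arms PCL-O, PCL-E, PCL-S and PCL-SE of the labels, and sampled on day 3 and day 7. The series design has a blank group, a group with the peptide S7, one with the peptide E7 and one with both, so PCL-O, the arm left over, was read as the blank. Scaffold material, medium, serum, cell line and osteogenic conditions are shared by all groups, the blank included. There is 1 library for each arm and day, although the labels give 3 RNA samples, and the sources used here do not say whether these were pooled. Below, PCL-S together with PCL-SE are the libraries with S7, and PCL-O together with PCL-E those without.

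Glycolysis splits glucose into pyruvate in the cytosol, with a small yield of ATP and without oxygen, and lactate dehydrogenase turns pyruvate into lactate, which restores the NAD+ that the pathway consumes. Many of its genes are targets of the hypoxia-inducible factors (HIFs) and of Myc. Osteoblast-lineage cells are known for high glucose uptake through the transporter encoded by Slc2a1 and for producing lactate even when oxygen is present.

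Most members were higher in the libraries with S7. On day 7 the 7 members Hk1, Hk2, Aldoa, Pgk1, Eno1, Pkm and Ldha rose with S7, by 0.55 (Pgk1) to 0.96 (Ldha) on the log2 scale. On day 3 the 3 members Slc2a1, Pkm and Ldha rose, by 0.52 (Ldha) to 0.60 (Pkm). Those day 3 calls depended on single libraries, as set out below. Of all tested genes, 24.9% rose with S7 on day 7 and 7.10% on day 3. The difference was called as larger on day 7 than on day 3 for Aldoa and Eno1, as it was for 13.2% of tested genes. No member was called for E7, and none was called between day 7 and day 3 without S7. Of tested genes, 0.00% and 1.61% were called in these 2 comparisons.

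Because many of these genes are known targets of HIFs, the promoter windows of the members were searched for the core letters of the hypoxia response element, ACGTG or GCGTG on either strand. The windows run from 250 bases before to 50 bases after a gene's start and come from RefSeq mouse (GRCm38.p6). The species of these windows is the labelled one, whereas the gene identifiers in the deposited table are rat, so they show mouse sequence for genes of the same name. All 10 members matched a window (Gpi under its RefSeq symbol Gpi1), with 17 windows in all. The core letters occurred in 13 of the 17 windows and in at least 1 window of 9 members, Gpi being the exception. Among all 32851 windows of the table, 43.8% held them. That share is per window, and no share per gene was computed to set beside the 9 members. Some windows of Aldoa and of Eno1 overlap each other, so the same letters can be counted more than once. An E-box, CACGTG, the letters that Myc is known to bind, overlaps the core letters and occurred in 1 member window, of Ldha, against 7.15% of all windows. Below are a window of Ldha and of Eno1, the members with the largest S7 difference on day 7, and that of Gpi, the member with the smallest. Capitals mark the core letters on either strand. They describe letters in a window, not a bound site.
Ldha, chr7:46845554-46845853, plus strand: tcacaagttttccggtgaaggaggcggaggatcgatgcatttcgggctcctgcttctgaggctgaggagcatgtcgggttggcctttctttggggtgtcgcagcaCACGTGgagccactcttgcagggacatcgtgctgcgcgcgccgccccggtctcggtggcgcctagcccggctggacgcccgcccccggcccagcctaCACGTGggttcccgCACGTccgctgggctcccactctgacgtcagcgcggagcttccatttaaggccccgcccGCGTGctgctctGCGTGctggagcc
Eno1, chr4:150236947-150237246, plus strand: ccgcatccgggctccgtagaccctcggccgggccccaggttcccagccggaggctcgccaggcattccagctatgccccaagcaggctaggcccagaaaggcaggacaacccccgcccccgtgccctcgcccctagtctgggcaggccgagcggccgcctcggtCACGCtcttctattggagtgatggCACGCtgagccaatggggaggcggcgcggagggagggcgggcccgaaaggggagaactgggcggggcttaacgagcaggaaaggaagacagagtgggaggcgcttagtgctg
Gpi, chr7:34230287-34230586, minus strand: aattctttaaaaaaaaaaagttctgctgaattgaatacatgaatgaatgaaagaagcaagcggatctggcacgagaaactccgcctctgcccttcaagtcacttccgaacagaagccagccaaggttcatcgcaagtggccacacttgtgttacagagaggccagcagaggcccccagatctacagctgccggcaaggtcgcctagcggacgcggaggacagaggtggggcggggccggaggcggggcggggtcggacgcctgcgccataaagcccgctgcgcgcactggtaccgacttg
The Ldha window held 7 matches, counting each strand of an overlapping pair, and its E-box letters occur there at 2 places. The other window of Ldha held 2 matches, and each of the 3 windows of Eno1 held 2. Matches per window in the other members were 2 for Slc2a1, 0 and 5 for Hk1, 2 for Hk2 and 1 for Pfkl. They were 0, 1 and 1 for Aldoa, 2 for Pgk1, and 0 and 2 for Pkm. Whether the number of matches goes with the S7 difference was not tested.

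Library totals ran from 32950326 to 41754124 counts, so that 3 counts, the smallest amount taken as detectable, correspond to 0.0718 to 0.091 CPM (counts scaled to a common library total), far under the level of every member. Levels below are CPM normalised with TMM, a scaling factor per library. The factors lay between 0.928 and 0.955 in PCL-O on both days and in the other day 3 libraries, at 1.02 in PCL-E on day 7, and at 1.15 and 1.16 in the S7 libraries of day 7. Of 8 mesenchymal stromal markers, 8 were detected, with a summed CPM (scaled to library totals) of 20235 to 38321 in the other libraries and of 8585 to 9063 in the day 7 libraries with S7. Most of that sum is Col1a1, which made up 1.53% to 3.24% of counts elsewhere and 0.566% and 0.527% in the S7 libraries of day 7. Leukocyte markers summed to 0.61 to 1.52 CPM, adipocyte ones to 0 to 3.61 (highest in the day 7 libraries with S7) and erythroid ones to 0 to 0.144. Endothelial markers, of which 3 of 4 were matched by name and 1 of these (Cdh5) was at 0 counts throughout, summed to 12.8 to 14.3 CPM in the day 3 libraries with S7 and to 3.25 to 6.37 in all others. Tek, the one that could be tested, rose with S7 on day 3 by 1.20 ± 0.15 (adjusted p = 0.00431). The leukocyte markers Adgre1 and Cd3e and the erythroid marker Hba-a1 were also at 0. The part of the scaling, of the stromal markers and of the endothelial markers in the results below was not tested. In bulk RNA, fewer cells of a type and less RNA per cell cannot be told apart.

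**Figure D1:**
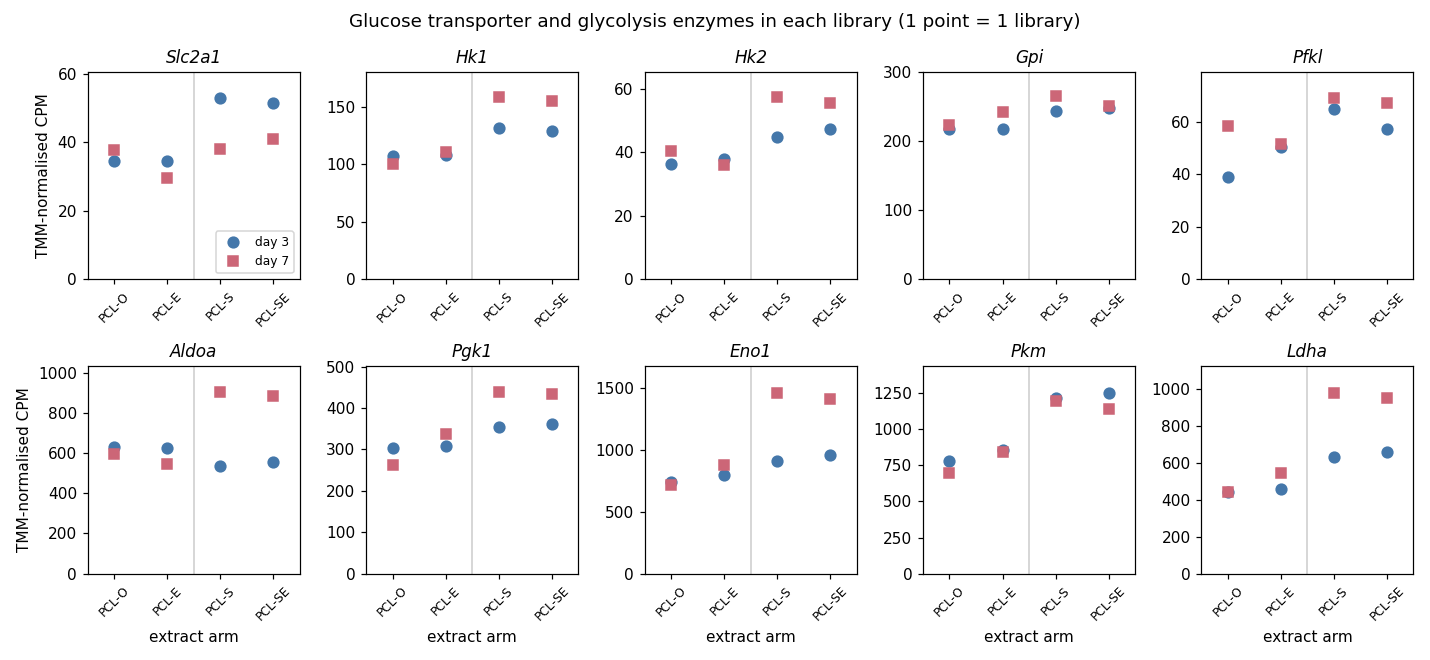
TMM-normalised CPM (y axis, from 0) of the 10 members in each extract arm (x axis) on day 3 (blue circles) and day 7 (red squares), 1 point per library. The grey line separates arms without and with S7. Ldha sits at 977 and 950 in the day 7 libraries with S7 and at 442 to 657 in the other libraries.

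The deposited FPKM values (fragments per kilobase of gene length, scaled to the library) had medians over the 8 libraries of 539 for Pkm, 473 for Eno1, 381 for Aldoa, 336 for Ldha, 185 for Pgk1, 107 for Gpi, 41.0 for Hk1, 18.7 for Pfkl, 14.6 for Slc2a1 and 6.90 for Hk2. These medians, which carry no TMM factor, were highest for Pkm, Eno1 and Aldoa. Neighbours from Ldha down kept this order in 8 of 8 libraries. Pkm was above Eno1 in 4 of 8 libraries, so that their order was not settled, and Eno1 was above Aldoa, and Aldoa above Ldha, in 6 of 8 each. Hk1 was thus the more abundant hexokinase transcript in every library, at 33.3 to 63.8 FPKM against 5.91 to 11.4 for Hk2.

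At entry into the pathway, Slc2a1 encodes the transporter that carries glucose into most cells. Its level on day 3 was 34.6 normalised CPM (PCL-O), 34.6 (PCL-E), 52.9 (PCL-S) and 51.6 (PCL-SE), and on day 7 it was 37.8, 29.6, 38.1 and 41.0 in the same order. The day 3 libraries with S7 stood above all 6 others. On day 7 the S7 libraries were only just above PCL-O. The S7 difference was 0.59 ± 0.12 (log2 fold change ± standard error) on day 3, with an adjusted p of 0.0201, and 0.24 ± 0.12 on day 7, with an adjusted p of 0.134. Slc2a1 was the one member called as fallen with time in the S7 libraries, by 0.40 on the log2 scale (adjusted p = 0.0263). This fall was -0.09 with an adjusted p of 0.48 when counts were scaled to library totals alone. Pkm was at -0.08 ± 0.10 over the same time and was not called (adjusted p = 0.541).

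Hk1 and Hk2 encode the hexokinases that trap glucose in the cell as glucose phosphate. Hk1 stood at 107 normalised CPM (PCL-O), 108 (PCL-E), 131 (PCL-S) and 129 (PCL-SE) on day 3, and at 99.97, 111, 158 and 155 on day 7. Hk2 stood at 36.3, 38.0, 44.8 and 47.3 on day 3, and at 40.3, 36.0, 57.3 and 55.7 on day 7. For both genes the libraries with S7 lay above those without on each day, and the day 7 pair was the highest of all. On day 7 Hk1 rose with S7 by 0.57 ± 0.08 (adjusted p = 0.00158) and Hk2 by 0.57 ± 0.09 (adjusted p = 0.00225). On day 3 the differences were 0.27 ± 0.08 and 0.31 ± 0.09, with adjusted p of 0.0721 and 0.0631.

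Gpi, which interconverts glucose phosphate and fructose phosphate, and Pfkl, the liver-type phosphofructokinase of the committed step, were not called on either day. Gpi ran from 217 to 218 normalised CPM without S7 and from 244 to 248 with it on day 3, and from 223 to 242 without and 251 to 266 with it on day 7. Its S7 differences were 0.18 ± 0.08 (adjusted p = 0.206) and 0.15 ± 0.08 (adjusted p = 0.166). Pfkl stood at 38.9 (PCL-O), 50.4 (PCL-E), 65.1 (PCL-S) and 57.2 (PCL-SE) on day 3, and at 58.5, 51.6, 69.2 and 67.2 on day 7. The S7 libraries of Pfkl were the higher ones within each day, but PCL-O on day 7 stood above PCL-SE on day 3. Its S7 differences were 0.45 ± 0.14 (adjusted p = 0.0812) and 0.31 ± 0.14 (adjusted p = 0.106).

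Aldoa, the aldolase that cuts fructose bisphosphate into triose phosphates, was the exception on day 3. It stood at 632 normalised CPM (PCL-O), 627 (PCL-E), 539 (PCL-S) and 556 (PCL-SE) on day 3, and at 598, 546, 904 and 883 on day 7. Within a day, the S7 libraries were thus the lower ones on day 3 and the higher ones on day 7, and PCL-E on day 7 lay between the 2 S7 libraries of day 3. The S7 difference was -0.20 ± 0.08 on day 3 (adjusted p = 0.163) and 0.64 ± 0.08 on day 7 (adjusted p = 0.00112). The change of the S7 difference between the days was 0.85 ± 0.12 with an adjusted p of 0.00429, the largest among the members.

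In the payoff steps, Pgk1 (phosphoglycerate kinase, which makes ATP) and Eno1 (enolase, which makes phosphoenolpyruvate) rose with S7 on day 7. Pgk1 stood at 303 normalised CPM (PCL-O), 309 (PCL-E), 354 (PCL-S) and 362 (PCL-SE) on day 3, and at 262, 337, 438 and 433 on day 7. The 2 day 7 libraries without S7 were further apart for Pgk1 than those of day 3. Its S7 differences were 0.23 ± 0.11 on day 3 (adjusted p = 0.232) and 0.55 ± 0.11 on day 7 (adjusted p = 0.00681). Without PCL-S on day 7, Pgk1 was no longer called (adjusted p = 0.0594). Eno1 stood at 739, 799, 910 and 960 on day 3, and at 715, 878, 1462 and 1413 on day 7. The lead of the S7 libraries was the larger one on day 7, with differences of 0.28 ± 0.10 on day 3 (adjusted p = 0.119) and 0.86 ± 0.10 on day 7 (adjusted p = 0.000852). The change of the difference between the days was 0.58 ± 0.14 for Eno1 (adjusted p = 0.0261), and it was called in 3 of the 8 fits that leave out 1 library.

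Pkm, the pyruvate kinase of the last ATP-making step, rose with S7 on both days. It stood at 777 normalised CPM (PCL-O), 860 (PCL-E), 1215 (PCL-S) and 1255 (PCL-SE) on day 3, and at 700.4, 844, 1194 and 1141 on day 7. The 4 libraries with S7 lay above the 4 without. The S7 difference was 0.60 ± 0.10 on day 3 (adjusted p = 0.0124) and 0.60 ± 0.10 on day 7 (adjusted p = 0.00312), and the change between the days was 0.01 ± 0.14 (adjusted p = 0.979). Counts per gene do not separate the Pkm splice forms M1 and M2, so nothing is said of their ratio.

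Ldha, whose product makes lactate from pyruvate, had the largest S7 difference of the members on day 7. It stood at 442 normalised CPM (PCL-O), 458 (PCL-E), 631 (PCL-S) and 657 (PCL-SE) on day 3, and at 445, 546, 977 and 950 on day 7. The 4 libraries with S7 lay above the 4 without, and the day 7 pair was the highest. Ldha rose with S7 by 0.52 ± 0.10 on day 3 (adjusted p = 0.0195) and by 0.96 ± 0.10 on day 7 (adjusted p = 0.00056). The change between the days was 0.45 ± 0.14 with an adjusted p of 0.056.

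**Figure D2:**
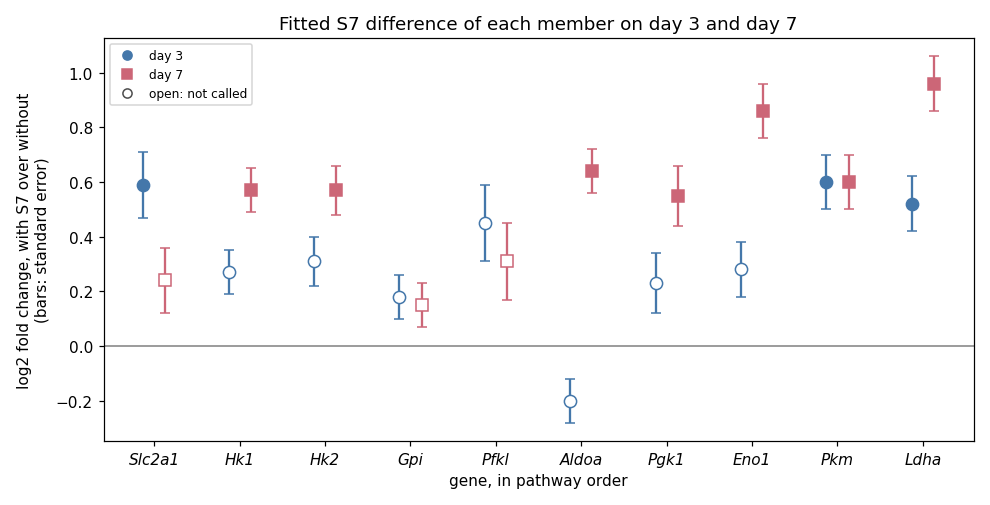
Log2 fold change of libraries with S7 over those without (y axis) for each member in pathway order (x axis), on day 3 (blue circles) and day 7 (red squares). Bars are standard errors and filled symbols are called at an adjusted p under 0.05: 3 on day 3 and 7 on day 7.

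These tests come from an edgeR model with terms for S7, day, S7 by day and E7 over the 8 libraries, so each side of an S7 difference holds 2 libraries from different arms. Their p-values rest on how far the libraries depart from these terms, that is, on how constant the E7 difference is across S7 status and day. They do not rest on variation between repeated cultures. On day 3, 3 of 10 members rose and 0 fell, where 7.10% of the 15942 tested genes rose. On day 7, 7 of 10 rose and 0 fell, where 24.9% of tested genes rose and 26.2% fell. The median log2 difference of the members was 0.30 on day 3 and 0.57 on day 7, and that of all tested genes was 0.00 and -0.03. Both S7 libraries lay above both others for 9 of 10 members on day 3, Aldoa being the exception, and for 10 of 10 on day 7, against 35.2% and 36.7% of tested genes. Scaling to library totals alone moved the median of all genes on day 7 to 0.19 and that of the members to 0.79. It called all 10 members as risen, where 35.4% of tested genes rose in place of 24.9%. It also put 65.2% of all day 7 calls on the rising side in place of 48.7%.

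The day 3 calls depended on single libraries. Leaving out PCL-O, PCL-S or PCL-SE of day 3 left 0 called members on day 3, and leaving out PCL-E of day 3 left 1, Pfkl. In these 4 fits the calls over all genes also dropped, from 2227 to between 257 and 713. The sizes changed little, since over all alternatives the day 3 difference stayed between 0.55 and 0.64 for Slc2a1, 0.56 and 0.63 for Pkm and 0.49 and 0.54 for Ldha. Leaving out PCL-O or PCL-E of day 7 put the members' median day 3 difference at 0.30 and 0.29. More genes were then called on day 3, among the members and among all tested genes alike. Aldoa was then among the members called on day 3, as fallen. Over all alternatives its day 3 difference stayed between -0.25 and -0.15. On day 7, the 6 members Hk1, Hk2, Aldoa, Eno1, Pkm and Ldha were called in each of the 8 fits that leave out 1 library. The day 3 counts of most of the other gene lists below also depended on single day 3 libraries. Among these were the other glycolysis, hexose transport, lactate and pyruvate, pentose phosphate, glycogen and tricarboxylic acid cycle genes. The day 3 counts of the gluconeogenesis genes and of the regulators changed less.

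Over time, 6 of 10 members were called in the libraries with S7. From day 3 to day 7 with S7, Aldoa rose by 0.71 ± 0.08 (adjusted p = 0.000763), Eno1 by 0.62 ± 0.10 (adjusted p = 0.00274) and Ldha by 0.58 ± 0.10 (adjusted p = 0.00346). Hk1 and Hk2 rose by 0.27 ± 0.08 and 0.29 ± 0.09, with adjusted p of 0.0295 and 0.0285. With Slc2a1 falling, 5 of 10 members rose and 1 fell, where 24.4% of tested genes rose and 26.4% fell. Aldoa, Eno1 and Ldha were the 3 called when any single day 3 library, or PCL-S on day 7, was left out.

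Without S7, none of the 10 members was called between the days by edgeR, with fitted changes from -0.14 (Aldoa) to 0.30 (Pfkl), and 0 had an unadjusted p under 0.05 with edgeR or with DESeq2. Among tested genes, 1.61% were called in either direction. The change of the S7 difference between the days was called upward for 2 of 10 members, Aldoa and Eno1, against 13.2% of tested genes. The number of members called for this change depended on the setting. It was 6 with library totals (Aldoa, Eno1, Ldha, Hk1, Hk2 and Pgk1), 5 after removal of a gene length trend, 3 with DESeq2, and 1, Aldoa, with an E7 by day term. Of all tested genes, 23.3%, 16.2%, 14.0% and 10.7% rose in these settings, in the same order. The calls also depended on which single library was left out. Over all alternatives the change stayed between 0.75 and 1.09 for Aldoa and between 0.45 and 0.82 for Eno1. Slc2a1 went the other way, at -0.54 to -0.11. Library totals moved the median of all genes in this contrast to 0.21.

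E7 gave no called member. The fitted E7 differences over both days ran from -0.07 (Slc2a1) to 0.11 (Eno1), with standard errors of 0.06 to 0.10. Of the 10 members 0 had an unadjusted p under 0.05 with edgeR or with DESeq2, and 0.00% of tested genes were called for E7 by edgeR, where 589 had an unadjusted p under 0.05 and DESeq2 called 1. Single libraries were also set side by side, without a test, as log2 ratios of normalised CPM with 2 added. On day 7, PCL-E over PCL-O had a median of 0.13 among the members, from -0.33 (Slc2a1) to 0.36 (Pgk1), and 0 of 10 members reached 1.5-fold higher, where 2.21% of the genes that reached 20 CPM in 1 of the libraries did. PCL-S over PCL-O ran from 0.01 (Slc2a1) to 1.13 (Ldha), and 6 of 10 members reached 1.5-fold, against 21.7% of genes. PCL-SE over PCL-O ran from 0.11 (Slc2a1) to 1.09 (Ldha).

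The libraries with both peptides and with S7 alone had nearly the same levels. PCL-SE over PCL-S on day 7 ran from -0.08 (Gpi) to 0.10 (Slc2a1), with 0 of 10 members at 1.5-fold in either direction, where 0.803% of genes were. On day 3 it ran from -0.18 (Pfkl) to 0.08 (Eno1). Set against the sum of the single-peptide log2 ratios, PCL-SE on day 7 was lower by 0.38 for Pgk1 (departure -0.38), with departures of -0.35 for Eno1, -0.33 for Ldha, -0.33 for Pkm and 0.43 for Slc2a1. On day 3 the departure was -0.54 for Pfkl and between -0.10 and 0.06 for the other members. These departures have 1 library behind each term and no test.

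**Figure D3:**
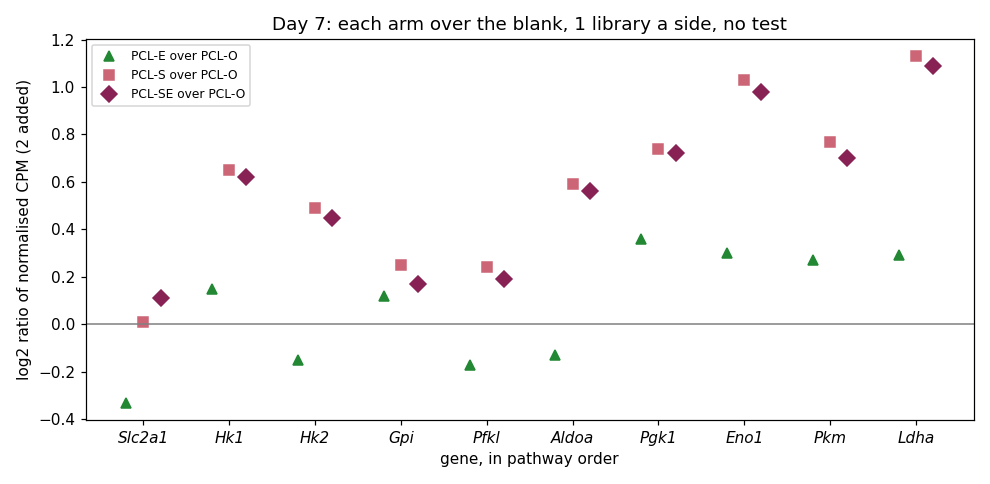
Log2 ratio of normalised CPM with 2 added (y axis) of PCL-E (green triangles), PCL-S (red squares) and PCL-SE (purple diamonds) over PCL-O on day 7, for each member (x axis), with 1 library a side. PCL-S and PCL-SE lie together for every member, at 1.13 and 1.09 for Ldha, where PCL-E is at 0.29.

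The members were not equally alike across the 8 libraries. The correlation of each member's log2 normalised CPM with the mean of the other members was 0.986 for Hk1, 0.978 for Ldha, 0.961 for Hk2, 0.94 for Eno1 and 0.925 for Pgk1. It was 0.888 for Gpi, 0.829 for Pkm, 0.768 for Pfkl, 0.612 for Aldoa and 0.389 for Slc2a1. These r values describe 8 libraries that differ in S7 status, day and scaling, and every gene carries those same differences. The 2 day 7 libraries with S7 lie apart from the rest. There were 6983 genes with a mean of at least 20 CPM, the members included. Of those that are not members, the most like the members' mean were Cdkn2aipnl (r = 0.998), Ap1s2 (0.997), Glrx (0.996), Nans (0.994) and Hdgf (0.991). Glrx, which encodes a glutaredoxin, ranged from 5.05 to 402 normalised CPM, and Hdgf from 123 to 208. As a share of all counts, the 10 members together took 0.304% to 0.405% in 6 libraries, and 0.64% and 0.623% in the S7 libraries of day 7.

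Among the other steps and isozymes of glycolysis, 12 of 20 listed genes could be tested. Of all 15942 tested genes, 7.10% rose and 6.87% fell with S7 on day 3, and 24.9% rose and 26.2% fell on day 7. These shares also stand beside the counts of the lists below. For list counts with library totals on day 7, the shares of tested genes are 35.4% risen and 18.9% fallen. Of the 12 genes, 4 rose and 0 fell with S7 on day 3, and 8 rose and 0 fell on day 7, with medians of 0.25 and 0.66. Without PCL-S on day 7 the day 7 count was 5, and without other single libraries 6 to 8. Pfkp, the platelet-type phosphofructokinase, stood at 21.6 normalised CPM (PCL-O), 24.4 (PCL-E), 36.0 (PCL-S) and 32.9 (PCL-SE) on day 3, and at 20.5, 27.7, 55.6 and 64.6 on day 7. It rose by 0.59 ± 0.13 on day 3 (adjusted p = 0.0309) and by 1.32 ± 0.13 on day 7 (adjusted p = 0.000467), whereas the muscle type Pfkm was at 0.01 ± 0.09 on day 7 (adjusted p = 0.953). Aldoc, an aldolase known from brain, was low at 1.21 to 10.1 CPM and rose by 1.64 ± 0.19 on day 3 and 1.97 ± 0.18 on day 7 (adjusted p = 0.00376 and 0.000343).

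The steps between aldolase and enolase moved on day 7 as well. Gapdh, often used as a reference gene, stood at 799 normalised CPM (PCL-O), 759 (PCL-E), 832 (PCL-S) and 812 (PCL-SE) on day 3, and at 778, 824, 1232 and 1121 on day 7, and its day 7 difference was 0.55 ± 0.09 (adjusted p = 0.00245). Tpi1, the triose phosphate isomerase, rose by 0.90 ± 0.13 (adjusted p = 0.00161) and the mutase Pgam1 by 0.86 ± 0.11 (adjusted p = 0.00098). Bpgm, Eno2 and Ldhb were also called, at 0.31, 0.68 and 0.65 (adjusted p = 0.05, 0.00836 and 0.0151). Bpgm thus lay at the threshold. With DESeq2, 7 genes of this list rose on day 7 in place of 8. Eno3, the muscle enolase, rose on day 3 by 1.04 ± 0.12 (adjusted p = 0.00355) and was at -0.20 ± 0.12 on day 7 (adjusted p = 0.217). Adpgk completed the day 3 calls at 0.46 ± 0.12 (adjusted p = 0.0463).

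Near-identical copies share reads with some of these genes. The copy AABR07052523.1 held 2.83% to 3.83% of the summed counts of Eno1 and itself, and AABR07044711.1 held 7.60% to 9.64% for Pkm. Summing the copies with Eno1 and Pkm left the members' calls as they were. For Gapdh the copy AABR07070043.1 held 22.7% to 28.5%, and for Eno2 the copy LOC100911625 held 41.4% to 60.7%, so the levels of Gapdh and Eno2 are uncertain.

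**Figure D4:**
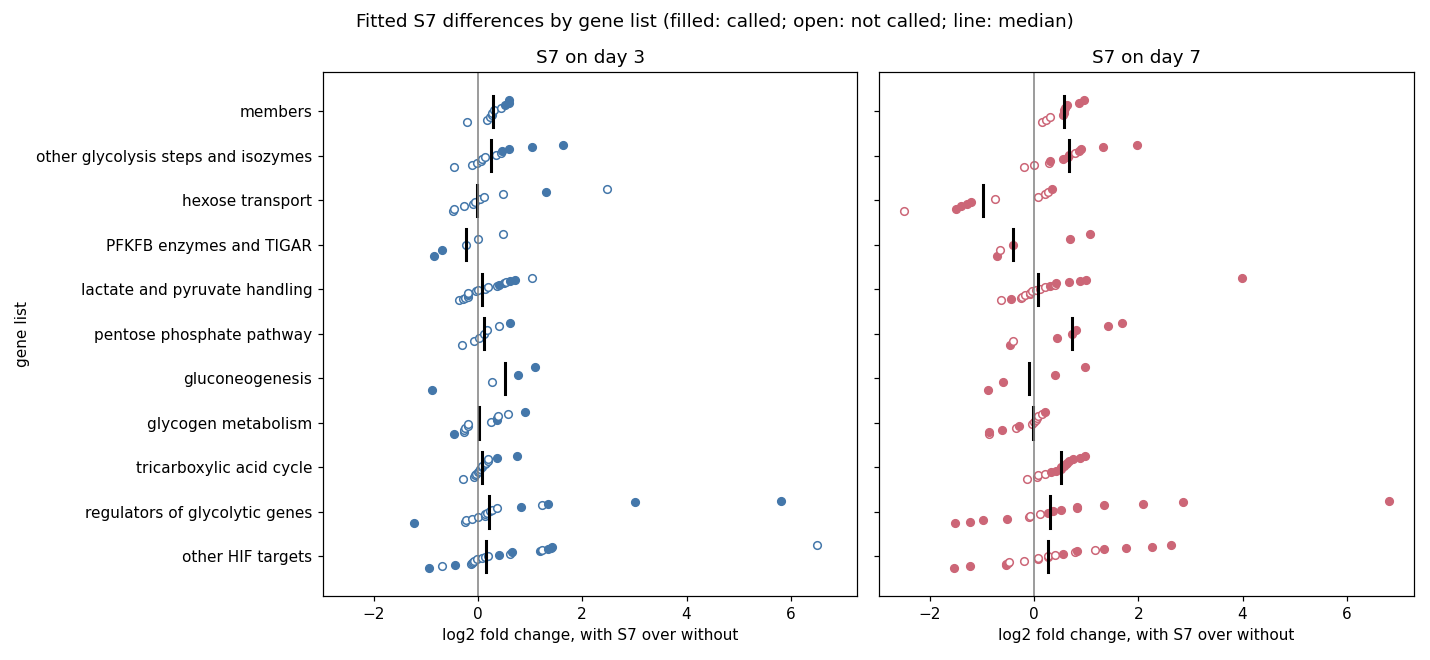
Log2 fold change with S7 over without (x axis) for the tested genes of each list (y axis) on day 3 (left) and day 7 (right), 1 point per gene, filled where called, with a black line at the list's median. On day 7 the medians of the members, the other glycolysis genes and the tricarboxylic acid cycle are 0.57, 0.66 and 0.52, and that of hexose transport is -0.98 (-0.42 without PCL-O of day 7).

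Among other hexose transporters, more fell than rose on day 7. Of 10 tested, 1 rose and 0 fell on day 3, and 1 rose and 4 fell on day 7, with medians of -0.01 and -0.98. Slc2a3, the high-affinity transporter known from neurons, stood at 29.5 normalised CPM (PCL-O), 24.8 (PCL-E), 17.7 (PCL-S) and 20.8 (PCL-SE) on day 3, and at 33.5, 23.9, 12.7 and 9.18 on day 7. It fell by 1.39 on the log2 scale on day 7 (adjusted p = 0.00116). Slc2a10 fell by 1.49 (adjusted p = 0.000283), and Slc2a13, which carries myo-inositol, by 1.20 (adjusted p = 0.000509). Slc2a4, the insulin-responsive transporter, was low at 0.29 to 7.75 CPM, rose on day 3 by 1.30 ± 0.34 (adjusted p = 0.0483) and fell on day 7 by 1.29 (adjusted p = 0.0435). Slc2a8 was the one that rose on day 7, by 0.35 ± 0.12 (adjusted p = 0.0485). When 1 library was left out, no gene of the list rose on day 7, except without PCL-E of day 7, where 2 did, and 3 to 5 fell. The day 7 median was -0.42 without PCL-O of day 7.

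Genes of the fructose bisphosphate switch around Pfkl went in both directions. Of 5 tested, 0 rose and 2 fell on day 3, and 2 rose and 2 fell on day 7, with medians of -0.23 and -0.41. Pfkfb3, whose product makes the activator of phosphofructokinase, stood at 74.9 normalised CPM (PCL-O), 58.7 (PCL-E), 34.6 (PCL-S) and 38.6 (PCL-SE) on day 3, and at 61.5, 52.0, 45.8 and 39.6 on day 7. It fell by 0.85 on day 3 (adjusted p = 0.00775) and by 0.41 on day 7 (adjusted p = 0.031), and Pfkfb2 fell by 0.69 and 0.71. Tigar, which breaks that activator down, rose by 0.69 ± 0.17 on day 7 (adjusted p = 0.0146). On day 7, 1 gene of these 5 rose and 1 fell without PCL-O or PCL-S of that day, and 0 rose and 1 fell without PCL-SE of that day. With library totals 2 rose and 1 fell, with a median of -0.18.

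For the fate of pyruvate and lactate, 4 of 18 tested genes rose and 0 fell on day 3, and 6 rose and 1 fell on day 7, with a median of 0.07 on both days. Among all tested genes, 24.9% rose and 26.2% fell on day 7. Slc16a1, a monocarboxylate transporter that moves lactate across the membrane, stood at 29.6 normalised CPM (PCL-O), 31.4 (PCL-E), 41.7 (PCL-S) and 44.6 (PCL-SE) on day 3, and at 32.8, 44.2, 69.9 and 70.8 on day 7. It rose by 0.50 ± 0.11 on day 3 (adjusted p = 0.031) and by 0.88 ± 0.11 on day 7 (adjusted p = 0.00107). The lactate exporter gene Slc16a3 was at -0.23 ± 0.16 on day 7 (adjusted p = 0.283). Pdk4, a kinase that shuts off pyruvate dehydrogenase, stood at 0.954 CPM (PCL-O), 5.45 (PCL-E), 45.3 (PCL-S) and 50.5 (PCL-SE) on day 7 and rose by 3.98 ± 0.57 (adjusted p = 0.00169). Pdp1, a phosphatase that turns the same enzyme on, also rose, by 1.00 ± 0.12 (adjusted p = 0.000793), and Pdk1 was at -0.17 ± 0.13 (adjusted p = 0.295). On day 7 scaling to library totals gave 9 risen and 0 fallen genes with a median of 0.30, and 4 rose without PCL-S or PCL-SE of day 7.

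The pentose phosphate pathway, which branches off at glucose phosphate and makes NADPH and ribose, had 1 of 7 tested genes risen and 0 fallen on day 3, and 5 risen and 1 fallen on day 7, with medians of 0.12 and 0.72. Taldo1 (transaldolase) stood at 71.9 normalised CPM (PCL-O), 106 (PCL-E), 293 (PCL-S) and 277 (PCL-SE) on day 7, and rose by 1.69 ± 0.16 (adjusted p = 0.000401). Tkt (transketolase) rose by 1.42 ± 0.14 (adjusted p = 0.000406). Rpe fell by 0.46 (adjusted p = 0.00606). On day 3 the 4 arms held 73.1 to 87.2 CPM of Taldo1, so its day 7 libraries with S7 stood above all 6 others.

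In the tricarboxylic acid cycle, 2 of 15 tested genes rose and 0 fell on day 3, and 11 rose and 0 fell on day 7, with medians of 0.07 and 0.52. Sdhb, a subunit of succinate dehydrogenase, stood at 51.5 normalised CPM (PCL-O), 53.6 (PCL-E), 107 (PCL-S) and 99.3 (PCL-SE) on day 7, and rose by 0.97 ± 0.09 (adjusted p = 0.000305). Suclg1 rose by 0.88 ± 0.10 and Sdha by 0.74 ± 0.08 (adjusted p = 0.000741 and 0.000764). Idh2, an NADP-dependent isocitrate dehydrogenase, rose on day 3 by 0.75 ± 0.09 (adjusted p = 0.00425) and was at 0.07 ± 0.09 on day 7 (adjusted p = 0.529). With 1 library left out, 10 to 12 genes of the cycle rose on day 7.

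Glycogen and gluconeogenesis genes showed no common direction. Among all tested genes, 24.9% rose and 26.2% fell on day 7. Of 12 tested glycogen genes, 3 rose and 1 fell on day 3, and 1 rose and 3 fell on day 7, with medians of 0.03 and -0.02. On day 7 no glycogen gene rose when 1 library was left out, other than without PCL-E on day 7, where 2 did, and 1 fell without PCL-S or PCL-SE of day 7. With library totals, 4 rose and 1 fell on day 7, with a median of 0.20. Gys1, a glycogen synthase, rose on day 3 by 0.36 ± 0.07 (adjusted p = 0.0236) and was at 0.03 ± 0.07 on day 7 (adjusted p = 0.742). Of 4 tested gluconeogenesis genes, 2 rose and 1 fell on day 3, and 2 rose and 2 fell on day 7, with medians of 0.51 and -0.09, the latter 0.13 when counts were scaled to library totals. Pc, the pyruvate carboxylase, rose by 1.10 ± 0.12 and 0.98 ± 0.12 (adjusted p = 0.00275 and 0.000883), and G6pc3 fell by 0.88 and 0.89 (adjusted p = 0.00295 and 0.000625).

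Of 16 tested regulators of glycolytic genes, 4 rose and 1 fell on day 3, and 9 rose and 4 fell on day 7, with medians of 0.21 and 0.31. With 1 library left out, 6 or 7 rose on day 7, other than without PCL-S on day 7, where 4 did, and 2 to 4 fell. With library totals 10 rose and 2 fell, with a median of 0.54. Hif1a, the HIF subunit best known for inducing glycolysis, stood at 108 normalised CPM (PCL-O), 112 (PCL-E), 94.3 (PCL-S) and 94.7 (PCL-SE) on day 3, and at 119, 114, 113 and 138 on day 7. Its differences of -0.22 ± 0.10 and 0.11 ± 0.10 did not pass the test (adjusted p = 0.208 and 0.405), and its protein, which is controlled by degradation, was not measured. Myc stood at 16.2, 19.2, 42.3 and 47.2 on day 3, and at 13.4, 17.7, 68.3 and 63.6 on day 7, and rose by 1.34 ± 0.13 and 2.09 ± 0.13 (adjusted p = 0.00192 and 0.00013). Epas1, which encodes another HIF alpha subunit, stood at 33.3, 88.2, 505 and 498 on day 3, and at 29.2, 13.3, 184 and 121 on day 7, with differences of 3.02 ± 0.54 and 2.86 ± 0.54 (adjusted p = 0.0145 and 0.0051). Myc and Epas1 were thus higher in the S7 libraries on both days, and the levels of Epas1 were the highest on day 3.

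Among the same regulators, Txnip, which restrains glucose uptake and is induced by glucose, stood at 85.3 normalised CPM (PCL-O), 89.8 (PCL-E), 151 (PCL-S) and 157 (PCL-SE) on day 3, and at 95.7, 56.6, 34.2 and 30.0 on day 7. It rose by 0.82 ± 0.20 on day 3 (adjusted p = 0.0372) and fell by 1.23 on day 7 (adjusted p = 0.00274), and the change between the days was -2.04 ± 0.28 (adjusted p = 0.00418). Its relative Arrdc4 fell by 1.51 on day 7 (adjusted p = 0.00197). Hif3a was detected mainly on day 3 with S7, at 22.7 (PCL-S) and 20.2 (PCL-SE) CPM, whereas PCL-O had 0.062 and PCL-E 0.757. Its day 7 libraries without S7 were at 0, and the list's median stayed at 0.31 with Hif3a set at its lower bound.

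HIF targets outside glycolysis went in both directions, as did all tested genes, of which 24.9% rose and 26.2% fell on day 7. Of 20 tested, 6 rose and 2 fell on day 3, and 6 rose and 4 fell on day 7, with medians of 0.16 and 0.26. On day 7, library totals gave 10 risen and 3 fallen genes with a median of 0.48. Without PCL-E of day 7, 9 rose and 5 fell, with a median of 0.46, and the median was 0.15 to 0.18 without any other library of that day. Vegfa, the angiogenic growth factor, stood at 129 normalised CPM (PCL-O), 137 (PCL-E), 123 (PCL-S) and 122 (PCL-SE) on day 3, and at 154, 109, 57.7 and 55.1 on day 7, and fell by 1.22 on day 7 (adjusted p = 0.000814). P4ha1, a collagen prolyl hydroxylase, fell by 0.44 on day 3 (adjusted p = 0.0326) and by 1.53 on day 7 (adjusted p = 0.00016). Adm (adrenomedullin) and Ndrg1 rose on both days, Adm by 1.41 ± 0.19 and 2.27 ± 0.19 and Ndrg1 by 1.34 ± 0.16 and 1.77 ± 0.15 (largest adjusted p = 0.00539).

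**Figure D5:**
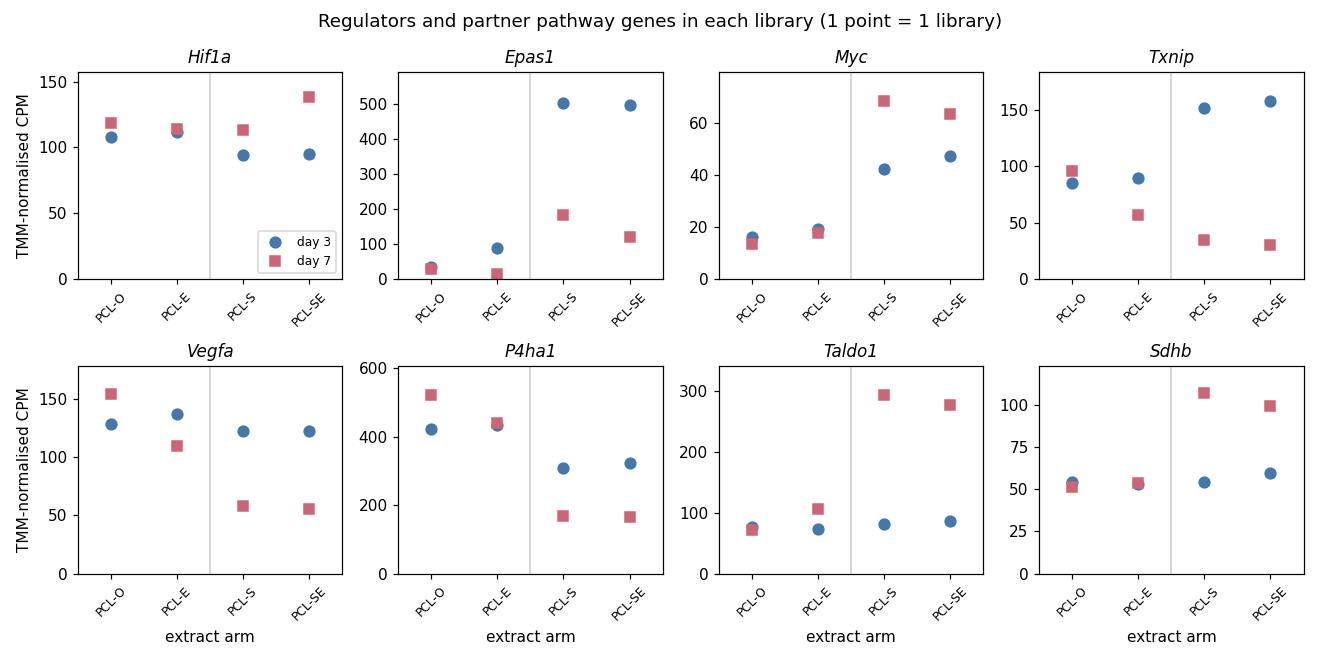
TMM-normalised CPM (y axis, from 0) of Hif1a, Epas1, Myc, Txnip, Vegfa, P4ha1, Taldo1 and Sdhb in each extract arm (x axis) on day 3 (blue circles) and day 7 (red squares), 1 point per library. Myc is at 42.3 to 68.3 in the libraries with S7 and at 13.4 to 19.2 in those without, whereas Vegfa on day 7 is at 57.7 and 55.1 with S7 and at 154 and 109 without.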

How the data were processed

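The deposited table holds whole-number counts per gene and library and FPKM values, both per the file headers; their aligner, counter and settings were not given in the sources used here. Although the submitters' processing notes name mm10 and the labels name mouse, 22050 of 26873 features carry rat Ensembl identifiers, 0 carry mouse ones and 4823 are new genes. Gene names follow the rat identifiers, and 10 lines of annotation fragments were left out. The deposited FPKM values were used to rank genes per length.

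Counts were filtered with filterByExpr, scaled with TMM and fitted with edgeR 4.0.16 (R 4.3.3) with terms for S7, day, S7 by day and E7, which leaves 3 residual degrees of freedom (common BCV, the coefficient of variation between libraries, 0.137). Quasi-likelihood F-tests were adjusted with Benjamini-Hochberg over 15942 genes, and a gene was called at an adjusted p under 0.05. Printed CPM carry the TMM factors unless stated. Ratios of single libraries are descriptive.

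The members and lists were chosen with earlier results of these data known. All 10 members are named; of other lists, the tested glycolysis isozymes, the hexose transport, lactate and pyruvate and regulator genes, and up to 4 genes with the smallest p, may be named; some that this rule names are not reported here. Of 174 listed names, 166 matched. Alternatives were DESeq2 1.42.0, other scalings, no count filter, other terms and leaving out each library. Summed copies and removal of a gene length trend were added after the data were seen. The fit was tested on simulated counts. Floors cover counting error only. Tables and figures used Python 3.11.15, pandas 2.3.3 and matplotlib 3.10.9.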

Additional observations from a re-analysis of the deposited data

Results flagged for a closer look

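The S7 difference changed between the days for 2 members by the test of the change itself. For Aldoa the log2 S7 difference was -0.20 on day 3 and 0.64 on day 7, a change of 0.85, and it was called in 8 of 8 fits that leave out 1 library. For Eno1 the differences were 0.28 and 0.86, a change of 0.58, called in 3 of 8 such fits.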

How the results depend on the processing

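No analysis paired by culture was possible. There is 1 library for each arm and day, and the sample titles do not link libraries by culture. The E7 term of the fit sets PCL-E against PCL-O and PCL-SE against PCL-S. With DESeq2, 5 members were called for S7 on day 3 in place of 3, where 8.41% of tested genes rose in place of 7.1%. For the change of the S7 difference between days, in place of 2 members, 6 were called with library totals, 1 with the E7 by day term and 5 with the gene length trend removed. Of tested genes, 23.3%, 10.7% and 16.2% rose in these settings, in place of 13.2%. With 1 library left out, called members numbered 0 to 9 for S7 on day 3, 6 to 8 for S7 on day 7, 3 to 7 for day 7 against day 3 with S7 and 1 to 6 for the change between days; the lone library of a side is then assumed to vary like the others. The direction turned only where the difference was not called. The change between days became positive for Gpi (0.21 with library totals, 0.04 to 0.05 with 1 library left out) and for Pfkl (0.10 with library totals and -0.40 to 0.10 with 1 library left out). It became negative for Pkm (-0.01 with copies summed, -0.04 with the length trend removed, -0.10 to 0.13 with 1 library left out, among them -0.03 and -0.02). For Pkm the change over time with S7 became 0.23 with library totals and ranged from -0.19 to 0.03 with 1 library left out. Library totals moved the median of all genes to 0.19 for S7 on day 7 and to 0.28 for day 7 against day 3 with S7. In the latter, 8 members were called as risen, where 39.2% of tested genes rose in place of 24.4%. The rising share of its calls went from 48.1% to 70.0%. Calls rest on 3 residual degrees of freedom, and a member that was not called is not shown to be equal between groups.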
